A study of Mus musculus with 11 samples.

Results

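Transcripts annotated as targets of nonsense-mediated decay were examined in KP1 cells, a mouse small cell lung cancer line with mutant Rb and p53. The transcripts were chosen by rule, as those of the GENCODE M21 type nonsense_mediated_decay whose estimated reads averaged at least 10 over the 5 bulk RNA-seq libraries. This gave 2514 of the 6819 transcripts of the type and of the 112762 annotated transcripts in the series. Of the others, 1994 had 0 reads in every library and 2311 had reads but averaged fewer than 10. The members came from 1966 parent genes, of which 1574 held 1 member, 285 held 2 and 107 held 3 or more. They carried 97.9% to 99.1% of the reads of their type in each library.

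There were 2 libraries from untreated cells (control replicates 2 and 3) and 3 from cells given 5 Gy (irradiated replicates 1, 2 and 3), all collected at the 24 h time point. All 5 were of this one line in culture, and nothing says that they came from separate cultures, so p values measure only the spread between these samples. The libraries held 21185956 to 31036317 estimated reads. A read came on average from a transcript of 5463 bases in control replicate 2, of 4729 in control replicate 3 and of 3625 to 3998 in the irradiated libraries, so the tests of level and usage were also made with an offset for length. Neuroendocrine markers were present, with Chga, which encodes a secretory granule protein, at 278 to 475 TPM (transcript abundance per length, scaled to the same total in each library). The 5 leukocyte markers summed to 0.0195 to 0.498 TPM, the 2 endothelial markers to 0.261 to 1.22 TPM and the 3 fibroblast markers to 0.0249 to 13.6 TPM. The highest fibroblast value was Col1a1, a collagen gene, at 13.5 TPM in control replicate 2 and at most 0.104 TPM in the others. The part of these markers in the results was not tested.

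Nonsense-mediated decay removes mRNAs on which the ribosome stops too early. An exon junction that still carries its protein complex downstream of the stop codon marks the mRNA, UPF1 is phosphorylated by SMG1, and proteins such as SMG6 then start degradation. Cells also use the pathway on purpose. Genes of SR proteins, which bind exons and promote their splicing, contain "poison" exons with an early stop, and inclusion of such an exon sends the mRNA to decay and limits the amount of protein.

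The stop-codon exons of 5 SR and Tra2 transcripts are shown because they are the SR and Tra2 members with non-overlapping groups, described further on, whose stop-codon exon was longer than 200 bases. Each line gives coding bases of the exon that holds the premature stop codon, up to and with that codon and at most the last 90, in the direction of the transcript, with the stop codon in capitals. They were read from the GENCODE M21 transcripts of GRCm38. For Tra2b-206 the stretch is chr16:22259181-22259261 on the minus strand, and for Srsf3-201 it is chr17:29039454-29039487 on the plus strand. The stretch of Srsf6-201 is chr2:162932877-162932966 on the plus strand, that of Tra2a-202 is chr6:49252965-49253054 on the minus strand, and that of Srsf4-203 is chr4:131884301-131884390 on the plus strand.
Tra2b-206: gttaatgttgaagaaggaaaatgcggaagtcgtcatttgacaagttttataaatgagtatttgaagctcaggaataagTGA
Srsf3-201: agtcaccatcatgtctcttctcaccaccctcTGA
Srsf6-201: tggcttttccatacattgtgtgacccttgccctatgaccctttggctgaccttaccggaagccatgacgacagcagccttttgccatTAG
Tra2a-202: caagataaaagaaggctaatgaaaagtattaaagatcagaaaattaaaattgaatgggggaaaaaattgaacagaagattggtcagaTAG
Srsf4-203: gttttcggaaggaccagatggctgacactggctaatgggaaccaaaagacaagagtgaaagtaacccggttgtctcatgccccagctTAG

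In Tra2b-206 the stop lay in exon 2, an exon of 276 bases, after 38 codons, where the main coding transcript of the gene encoded 288 amino acids. Srsf3-201 stopped in exon 4, of 456 bases, after 124 codons against 164 amino acids in the main coding transcript. For Tra2a-202 the exon had 306 bases and the reading frame 59 codons against 282 amino acids. In Srsf6-201 the stop lay in exon 3, of 268 bases, after 135 codons against 339 amino acids. The start of the reading frame of Srsf4-203 is not in its annotated transcript, and its stop lay in exon 2, of 207 bases. Exons of Tra2b-206, Srsf3-201, Tra2a-202 and Srsf4-203 that held the stop overlapped no exon of a protein-coding transcript of the same gene, while the stop of Srsf6-201 is also used by a transcript annotated as protein coding. Tra2b-206, Srsf3-201 and Srsf6-201 had no base that other transcripts of their gene lacked, and the whole 306-base exon of Tra2a-202 was its own.

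The members shared the structure by which the annotation recognizes decay targets. Of 2513 members with an annotated stop codon, 2503 (99.6%) had it more than 50 bases before the last exon junction. The median distance was 492 bases, with quartiles at 224 and 1077 bases, and the median member had 4 exon junctions after its stop. Reading frames were short, with a median of 393 coding bases against 1542 in the main coding transcript of the same gene. In 495 members the annotated frame lacked its start.

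**Figure D1:**
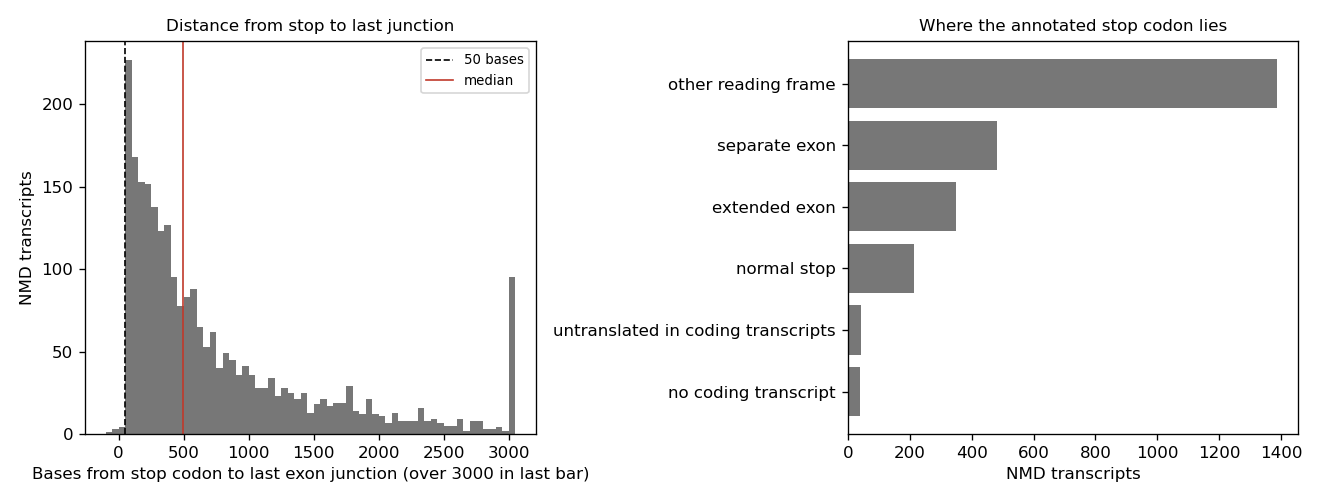
Left, number of members by the distance in bases from the stop codon to the last exon junction, with distances over 3000 in the last bar, a dashed line at 50 bases and a red line at the median of 492. Right, number of members by where the stop codon lay relative to the coding transcripts of the gene: 1386 stopped within coding sequence that other transcripts read in another frame.

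In 1386 members (55.1%) the stop lay within bases that are coding in a protein-coding transcript but read in another frame. In 481 (19.1%) it lay in a separate exon that overlapped no coding transcript, as in a poison exon, and in 350 (13.9%) in an extension of an exon beyond its bounds in coding transcripts. Another 213 ended at a stop that a protein-coding transcript also uses, 44 in sequence that coding transcripts leave untranslated, and 39 belonged to genes with no coding transcript. Many members were hard to tell from other transcripts of their gene. Of the 2514, 1282 (51.0%) had no base of their own and 347 had neither a base nor an intron of their own, so that the reads estimated for them rest on how Salmon divides shared reads. There were 1023 members (40.7%) with 0 reads in at least 1 library, against 26.2% of all 38629 annotated transcripts at the same mean.

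The first question was whether the type as a whole took another share of the RNA after irradiation. NMD transcripts held 2.02% and 1.91% of the annotated reads in control replicates 2 and 3. In irradiated replicates 1, 2 and 3 they held 1.69%, 1.70% and 1.79%. The groups did not overlap, and the mean was 1.97% ± 0.078 (SD, n = 2) in control and 1.73% ± 0.052 (SD, n = 3) in irradiated cells. The exact two-sided permutation test gave p = 0.1, the smallest p that 2 against 3 libraries allow. As a share of TPM the type held 2.16% in both controls and 1.84% to 1.94% in the irradiated libraries. A share is relative to all other annotated RNA, so a lower one need not mean fewer of these transcripts. Fewer cells with them and less of them in each cell cannot be told apart in bulk RNA either.

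A few transcripts set much of this share. Lars2-209, from the gene of the mitochondrial leucyl-tRNA synthetase, had 16.5% of all NMD reads in control replicate 2, 8.18% in control replicate 3 and 9.0% to 16.4% in the irradiated libraries. Without Lars2-209 the shares of annotated reads were 1.69% and 1.75% in control and 1.49% to 1.55% in irradiated cells, which still did not overlap (exact permutation p = 0.1). Without the 3 transcripts with the most reads they were 1.46% and 1.61% against 1.38% to 1.48%, which overlapped (exact permutation p = 0.3).

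As a share of the TPM of the parent genes the groups overlapped. Members summed to 12.9% and 12.5% of the TPM of their parent genes in control replicates 2 and 3 and to 12.7%, 11.9% and 12.3% in irradiated replicates 1, 2 and 3. As a share of the estimated reads of those genes they held 11.2% and 10.3% in control and 9.77%, 9.64% and 10.3% in irradiated cells, where irradiated replicate 3 was just below control replicate 3. The parent genes themselves held a different part of all TPM, 16.1% in both controls and 14.5% to 14.6% after irradiation. The composition of the parent genes also differed. Retained-intron transcripts of the same genes held 8.82% and 10.2% of the TPM in control and 3.92%, 5.599% and 5.47% in irradiated cells. A denominator of members and protein-coding transcripts together was chosen after the data were seen. Of this TPM, members held 15.0% and 14.7% in control and 13.1% to 13.7% in irradiated cells, and these groups did not overlap.

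**Figure D2:**
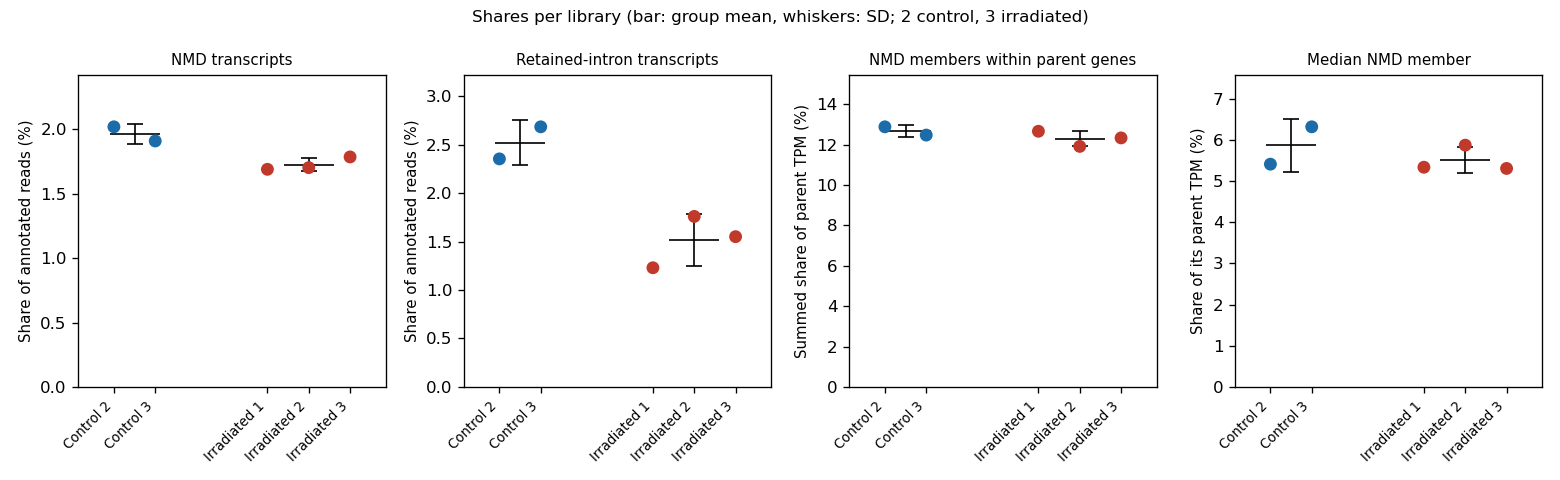
Share in percent in each of the 2 control (blue) and 3 irradiated (red) libraries, with the group mean and SD as bar and whiskers. NMD and retained-intron transcripts had a lower share of annotated reads in every irradiated library than in both controls, while the summed and the median share of the parent TPM overlapped between the groups.

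Retained-intron transcripts, which keep intron sequence and have no annotated reading frame, showed a larger difference. They held 2.35% and 2.69% of annotated reads in control and 1.23%, 1.76% and 1.55% in irradiated libraries. There were 0.858 and 0.711 NMD reads for each retained-intron read in control and 1.38, 0.968 and 1.15 in irradiated libraries. The difference of this ratio had an exact permutation p of 0.2. The median log2 fold change in level was 0.01 over the members, −1.02 over retained-intron transcripts and 0.21 over protein-coding transcripts.

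The median member had a modest part of its gene's RNA. It held 5.41% and 6.32% of the parent TPM in control replicates 2 and 3 and 5.34%, 5.88% and 5.31% in the irradiated replicates, so that the groups overlapped. The lower quartile overlapped, at 0.333% and 1.88% in control and 1.34% to 1.64% in irradiated cells, while the upper quartile lay at 16.3% to 18.1% in control and 15.7% to 16.1% in irradiated cells. Between 125 and 165 members in a library held over 50% of the TPM of their gene. Of 2484 members whose gene had another annotated transcript, 351 (14.1%) had a higher share in all 3 irradiated libraries than in both controls, where 15.4% of all such transcripts did. A lower share in all irradiated libraries was seen for 400 members (16.1%), where the background was 19.9%. Both counts were thus below the background of all transcripts at the same mean.

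**Figure D3:**
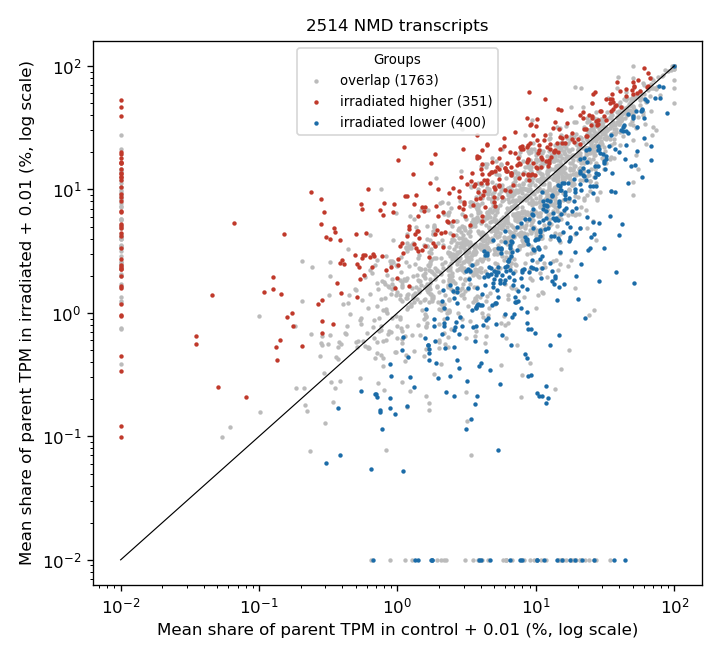
Mean share of the parent gene's TPM in percent in irradiated (vertical) against control cells (horizontal) for the 2514 members, both on log scales with 0.01 added. Red points (351) were higher and blue points (400) lower in all 3 irradiated libraries than in both controls, and points on the margins at 0.01 are members at 0 throughout a group.

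Against the background of 15.4% higher and 19.9% lower, 213 members with a stop in another reading frame (15.4%) had a higher share and 179 (12.9%) a lower one. With a stop in a separate exon 57 (11.9%) were higher and 92 (19.1%) lower, and with an extended exon 47 (13.4%) were higher and 82 (23.4%) lower. The tilt towards lower shares in the last 2 kinds was also that of all transcripts. Whether these counts differ between the kinds of stop was not tested.

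The most abundant members ranged from near-complete to minor parts of their genes. Lars2-209 had the most reads, 103234 and 41227 in control replicates 2 and 3 and 48111, 32279 and 79542 in irradiated replicates 1, 2 and 3. The controls thus differed from each other by more than the groups did, and its share of the Lars2 TPM stayed between 64.8% and 74.9%. Hnrnpu-206, from the gene of a nuclear RNA-binding protein, had 36866 and 34467 reads in control and 16561, 14047 and 22220 in irradiated libraries. Its share of the parent TPM overlapped, at 79.3% and 72.0% in control and 83.6%, 77.5% and 80.7% in irradiated cells, while the Hnrnpu gene as a whole was lower by edgeR (log2 fold change −0.87, SE 0.17, adjusted p = 0.012).

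Grip2-204, from the gene of a scaffold protein of glutamate receptors, rested on control replicate 2. It had 32859 reads there, 4648 in control replicate 3 and 3329, 1820 and 9318 in irradiated libraries, and was 98.9% to 99.7% of its gene's TPM. Its log2 fold change in level was −1.59 (SE 0.89) and became 0.28 without control replicate 2. Scaf11-202, from the gene of a splicing-associated SR-like factor, had 8143 and 4931 reads in control and 2877, 2117 and 2847 in irradiated libraries. Its share was 66.3% and 47.8% in control and 42.8%, 45.2% and 40.9% in irradiated cells, without overlap. Ttc3-232 was also lower in share in every irradiated library, with 15.3% and 14.0% of its gene against 8.41%, 4.12% and 10.6%. Qk-202, from the gene of the RNA-binding protein Quaking, was the reverse, at 35.4% and 39.2% in control and 42.8%, 52.6% and 45.4% in irradiated cells.

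Ddx5-208, from the gene of an RNA helicase, varied within both groups, with shares of 9.32% and 17.4% in control and 3.28%, 12.3% and 6.69% in irradiated cells. Eef1b2-205, from the gene of a translation elongation factor subunit, had 2254 and 2546 reads in control and 4110, 3658 and 4504 in irradiated libraries. Its share was nevertheless lower in the irradiated libraries, at 55.1%, 49.7% and 56.5% against 59.0% and 64.7%, while the gene as a whole was higher by edgeR (log2 fold change 1.12, adjusted p = 0.0085). Differences in reads and in share could thus point opposite ways for the same member.

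SR genes had 11 members in 9 of their 13 genes. Of these, 4 had a higher share in every irradiated library than in both controls, 3 a lower share and 4 overlapped, where 15.4% and 19.9% of all transcripts were higher and lower. None passed the usage test of edgeR, which compares the change of a transcript with that of its gene, and 2 had an unadjusted p under 0.05. None of the 13 genes was called at the gene level at an adjusted p under 0.05 by edgeR, where 12.7% of 14106 genes were called higher and 13% lower. The median log2 fold change of the list was 0.22.

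Tra2b-206 carries the poison exon of Tra2b, a splicing regulator related to the SR proteins. It had 269 and 723 reads in control replicates 2 and 3 and 1284, 1191 and 971 in irradiated replicates 1, 2 and 3. Its share of the Tra2b TPM was 5.16% and 15.2% in control and 28.1%, 27.1% and 19.7% in irradiated cells. All irradiated libraries were higher than both controls, and the controls differed from each other about as much as control replicate 3 and irradiated replicate 1. The mean share was 10.2% ± 7.13 (SD) in control and 24.9% ± 4.58 in irradiated cells. The log2 difference in usage was 1.13 (edgeR adjusted p = 0.25). It was 0.62 without control replicate 2 (edgeR adjusted p = 0.92) and 2.05 without control replicate 3 (edgeR adjusted p = 0.016). The gene itself did not pass the test (log2 fold change 0.22, adjusted p = 0.30 by edgeR).

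Srsf3-201 carries the exon 4 stop of Srsf3, the smallest SR protein. It had 518 and 903 reads in control and 2007, 1500 and 1571 in irradiated libraries. The share of the Srsf3 TPM was 4.77% and 8.43% in control against 15.5%, 11.5% and 12.01% in irradiated cells, again without overlap. The mean share was 6.60% ± 2.59 (SD) in control and 13% ± 2.15 in irradiated cells. Its usage differed by 0.95 on the log2 scale (edgeR adjusted p = 0.51), and by 1.25 with the length offset (edgeR adjusted p = 0.18). Srsf3-204, the most abundant retained-intron transcript of the gene, differed the other way and held 5.14% and 7.76% in control and 0.738%, 2.48% and 1.75% in irradiated cells. Of the TPM of Srsf3-201 and the protein-coding transcripts together, Srsf3-201 held 5.38% and 9.89% in control and 15.8%, 12.1% and 12.7% in irradiated cells.

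Srsf6-201 had 648 and 861 reads in control and 987, 888 and 746 in irradiated libraries, where irradiated replicate 3 lay between the controls. Its share was 21.5% and 23.0% in control and 36.04%, 29.8% and 26.4% in irradiated cells, all above both controls. Of the TPM of Srsf6-201 and the protein-coding transcripts together, the shares were 24.3% and 27.6% against 37.0%, 33.7% and 28.7%, also without overlap. The log2 difference in usage was 0.52 (edgeR adjusted p = 1). Srsf2-204, a short transcript of 620 bases, had the same direction at low levels, with 0.69% and 0.65% of the gene in control and 3.52%, 4.18% and 1.0% in irradiated cells.

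The paralogue of Tra2b went the other way. Tra2a-202 had 531 and 580 reads in control and 269, 388 and 310 in irradiated libraries. Its share of the Tra2a TPM was 11.4% and 11.3% in control and 7.34%, 8.41% and 6.81% in irradiated cells, with no overlap and a log2 difference in usage of −0.44 (edgeR adjusted p = 1). Srsf4-203 held 7.36% and 3.70% in control and 1.70%, 1.52% and 2.02% in irradiated cells. Srsf4-204, which also stops in a separate exon, held 7.39% and 9.33% in control and 5.36%, 6.24% and 5.65% in irradiated cells. The 4 remaining members, Srsf1-204, Srsf2-202, Srsf9-205 and Srsf11-206, overlapped between the groups, with shares from 0% to 6.20%.

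**Figure D4:**
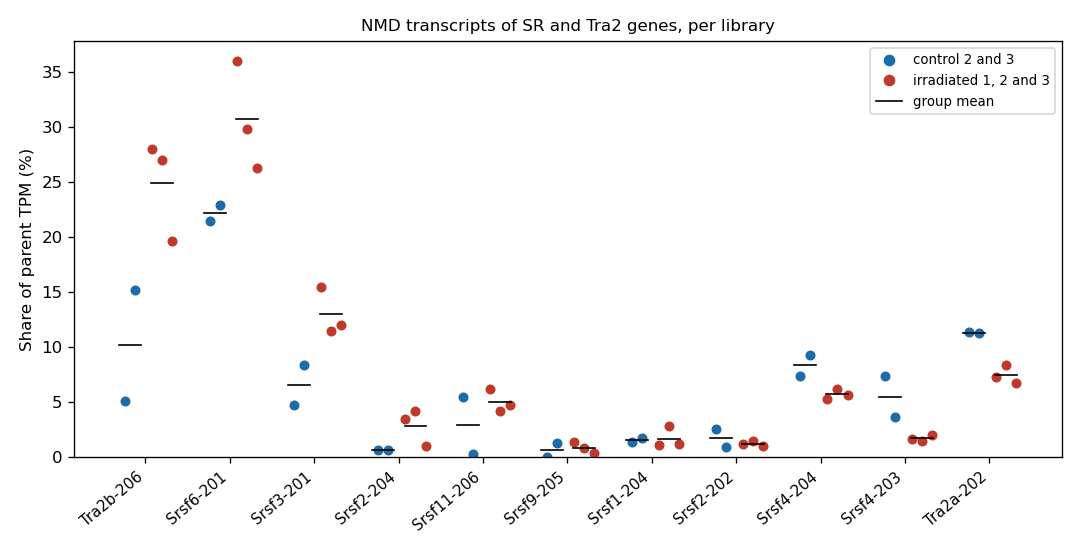
Share of the parent gene's TPM in percent for the 11 members of SR and Tra2 genes in each control (blue) and irradiated (red) library, with group means as lines. Tra2b-206, Srsf6-201, Srsf3-201 and Srsf2-204 were higher and Tra2a-202, Srsf4-203 and Srsf4-204 lower in all 3 irradiated libraries, and none passed the adjusted usage test.

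The genes of hnRNP and related RNA-binding proteins had 26 members in 14 genes. At the gene level edgeR called 1 of 24 higher and 1 lower at an adjusted p under 0.05, and 0 higher and 3 lower with the length offset. Of the members, 6 had a higher share in all irradiated libraries, 4 a lower share and 16 overlapped, beside the background of 15.4% and 19.9%. Summed, the 26 members held 16.3% and 16.1% of the TPM of their parents in control and 12.2%, 10.9% and 12.3% in irradiated cells, lower in each irradiated library. This sum includes Hnrnpu-206, which held most of the Hnrnpu TPM in every library with overlapping shares. The Hnrnpu gene had 1157 and 1315 TPM in control and 467, 465 and 623 TPM in irradiated libraries. The sum thus also depends on the levels of the parent genes, and it was not made without Hnrnpu-206. Tial1, a stress granule protein that also regulates splicing, had members that differed in both directions. Tial1-205 had 5.89% and 15.0% of the gene in control and 21.2%, 23.1% and 18.5% in irradiated cells, while Tial1-204 had 7.88% and 7.60% against 5.56%, 4.06% and 6.43%. Hnrnpdl-205 was higher in share, at 12.1% and 9.78% in control and 17.8%, 14.1% and 13.6% in irradiated cells. Hnrnpll-203, whose stop lies in a separate exon of 83 bases, was lower, at 10.8% and 11.8% in control and 3.98%, 8.34% and 8.35% in irradiated cells. Ptbp1-201 and Ptbp2-208, from genes of polypyrimidine tract-binding proteins, of which the first had 0 reads in irradiated replicate 2, overlapped.

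Ribosomal protein genes had 16 members in 12 genes. Here the genes themselves were higher, 77 of 82 tested by edgeR at an adjusted p under 0.05, where 12.7% of all genes were, with a median log2 fold change of 1.25. With the length offset the calls were 40 and the median 0.73, and with the replicate block the calls were 55. The share of the parent TPM was higher in all irradiated libraries for 6 members, lower for 1 and overlapping for 9, again beside 15.4% and 19.9% over all transcripts. Rpsa-206 had 3175 and 3081 reads in control and 6508, 5890 and 8616 in irradiated libraries, and its share was 11.9% and 16.4% against 20.1%, 24.9% and 26.1%. Rpl12-201 was a large part of its gene, at 35.6% and 28.8% in control and 61.9%, 58.4% and 40.3% in irradiated cells, from 79 to 562 reads a library. None of the 16 passed the adjusted usage test, with an edgeR adjusted p of 0.47 for Rpsa-206.

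The factors that carry out the decay were read at the gene level from a list of 25 genes. edgeR called 8 lower and 4 higher at an adjusted p under 0.05, where 13% and 12.7% of all genes were called. The lower genes included Smg1, the kinase of UPF1 (log2 fold change −1.32, SE 0.18, adjusted p = 0.0082), Upf1, the central helicase (−1.21, SE 0.24, adjusted p = 0.012), and Dcp2, the decapping enzyme (−1.07, SE 0.16, adjusted p = 0.0092). The higher genes included Rbm8a, a core subunit of the exon junction complex (0.88, SE 0.18, adjusted p = 0.013), and its partner Magoh. With the length offset edgeR called 1 of the 25 higher and 0 lower, and with the replicate block 0 higher and 4 lower. The log2 fold change with the offset was −0.13 for Smg1, −0.33 for Dcp2 and −0.97 for Upf1. The control libraries drew their reads from longer transcripts, as given above.

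Decay factors were parents of only 4 members. Smg1-204 had 3050 and 771 reads in control and 118, 0 and 550 in irradiated libraries, which made 25.1% and 11.4% of the gene's TPM in control and 4.30%, 0% and 14.7% in irradiated cells. Control replicate 3 lay below irradiated replicate 3, so the groups overlapped. Smg5-202, Smg6-202 and Dcp1a-209 averaged 20.4, 13.7 and 11.9 reads and overlapped too, and all 60 reads of Dcp1a-209, which was not tested, came from irradiated replicate 1.

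Normal RNAs that the pathway is known to degrade were read as a further list. Of 9 symbols on this list 5 were found. The symbols not found were those of noncoding RNA genes, so only coding genes of the list were read. Of these 5 genes, edgeR called 3 higher and 0 lower at an adjusted p under 0.05, and 2 were not called. Over all genes 12.7% were called higher and 13% lower. Gadd45b, a stress-response gene, was at 21.4 and 34.8 TPM in control and 67.8, 90.1 and 52.8 TPM in irradiated libraries (log2 fold change 1.67, SE 0.32, adjusted p = 0.012). Gadd45a was at 32.1 and 56.9 TPM against 157, 90.7 and 70.8 TPM (1.61, SE 0.38, adjusted p = 0.020), and Ddit3, which encodes a stress transcription factor, was the third (0.83, adjusted p = 0.045). Only Gadd45b was called with the length offset (adjusted p = 0.031). The rate of decay was not measured.

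A test of single transcripts asked whether the level of any member changed. Of the members, 2392 passed edgeR's filter on low counts and 122 did not. No member was called higher and none lower by edgeR at an adjusted p under 0.05 and a log2 fold change beyond 1.5, and this held for all 40440 transcripts tested, a background of 0%. At an unadjusted p under 0.05, 161 members (6.73%) were higher and 141 (5.90%) lower, against backgrounds of 12.5% and 8.31%. DESeq2 called 118 members (4.70%) higher and 83 (3.30%) lower at the same thresholds, against 3.65% and 3.16%. In simulated counts the edgeR test of transcript level recovered 51% of changed transcripts, with 9 false among 111 calls. DESeq2 recovered 59%, with 212 false among 330 calls. The changed transcripts all had means well above 10 reads, so recovery among members near that mean was not measured.

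The usage test asked whether a member changed relative to its gene, in 2336 members, with 178 not tested. edgeR called 4 members (0.171%) higher and 11 (0.471%) lower at an adjusted p under 0.05, against backgrounds of 0.21% and 0.442% of 35722 transcripts. At an unadjusted p under 0.05 it was 84 (3.60%) and 68 (2.91%), against 2.96% and 3.51%. The shares of members called were close to the background in both directions. The counts rested on single libraries: edgeR called 62 members higher and 48 lower without control replicate 3, 5 and 7 without control replicate 2, 5 and 4 without irradiated replicate 1, 2 and 1 without irradiated replicate 2, and 2 and 4 without irradiated replicate 3. With the replicate block it called 0 in either direction. The same usage test recovered 3.5% of the changed transcripts in simulated counts. These had a log2 fold change of 2 in level, and the median size of their usage difference was 0.9. Most such changes would thus not be called, and recovery at a usage difference of 2 was not measured.

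The called members were nearly all read in one group and at 0 in the other. Of the 15, 13 were at 0 reads in every library of a group, and 11 had no base of their own. A member at 0 throughout a group reached the mean of 10 reads only through the other group, so these counts describe the estimates and are not support for a change of the type. Among all members, 42 were at 0 in both controls and read in all irradiated libraries, and 24 were the reverse. Control replicate 2 stood apart here: 341 members were at 0 in it and read in the other 4 libraries, against 56 for control replicate 3. In all, 598 members were at 0 in control replicate 2, 263 in control replicate 3 and 272 to 314 in the irradiated libraries. These patterns of zeros were not counted over all transcripts, so whether they are particular to the members was not tested.

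Among the members called lower, Tmem161a-212 had 61 and 78 reads in control and none in any irradiated library, and was 3.97% and 4.10% of its gene's TPM in control. Nras-203, from the gene of a small GTPase, had 527 reads in control replicate 2, 106 in control replicate 3 and 0 in the irradiated libraries. The pattern was the same for Elp3-202, from the gene of the catalytic subunit of Elongator, with 42 and 65 reads in control, and for 0610010F05Rik-207 with 334 and 130 reads and Svil-202 with 128 and 50 reads. These read values are given as a description.

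Of the members called higher, Wdr13-207 had 5.2 and 0 reads in control and 176, 94 and 147 in irradiated libraries. Mdh2-203, from the gene of mitochondrial malate dehydrogenase, had 0 reads in both controls and 112, 54 and 47 in irradiated libraries, where it made up 1.02% to 2.65% of the gene. Capn15-208 had 0 reads in control and 134, 178 and 48 in irradiated libraries. Rin2-208 and Dusp12-204, also at 0 in both controls, had 113 to 200 and 34 to 50 reads in irradiated libraries and were not called. Each called member from Tmem161a-212 to Capn15-208 lost its call when at least 1 of the libraries was left out, Nras-203 for example without control replicate 2.

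The other called members were chosen for mention after their values were seen. Fbxo7-201, Ube4b-210, Gabra4-202, Bicd1-207 and 2810408A11Rik-209 were read in both controls and at 0 in all irradiated libraries. Gabra4-202, from the gene of a GABA receptor subunit, held 51.9% and 21.6% of its gene in control, and the coding Gabra4-201 held 100% in each irradiated library. In the gene 2810408A11Rik another NMD transcript took the opposite course, with 0 reads in both controls and 33, 45 and 34 in irradiated libraries. Hnrnpa2b1-209 rested on control replicate 3, with 2138 reads there, 48 in irradiated replicate 2 and 0 in the other 3 libraries. Rbm3-207 had 96 and 55 reads in irradiated replicates 1 and 2 and 0 in the other 3 libraries, so its groups overlapped.

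The level of a member depended on its length. The shortest quartile of the members, of 304 to 1000 bases, had a median log2 fold change of 0.27, and the quartile of 1005 to 2109 bases had 0.35. Members of 2112 to 3357 bases had −0.10 and those of 3360 to 15399 bases −0.41. With the length offset the 4 medians were 0.30, 0.06, 0.00 and −0.06. The median usage, which compares each member with its own gene, ranged from −0.20 to −0.08 over these quartiles, and with the length offset it was 0.01, −0.23, 0.05 and 0.25 from the shortest to the longest. Higher shares in all irradiated libraries were seen in 15.2%, 17.8%, 13.2% and 9.54% of the members from the shortest to the longest quartile, and lower shares in 17.0%, 12.6%, 16.4% and 17.6%, where all transcripts gave 15.4% and 19.9%.

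**Figure D5:**
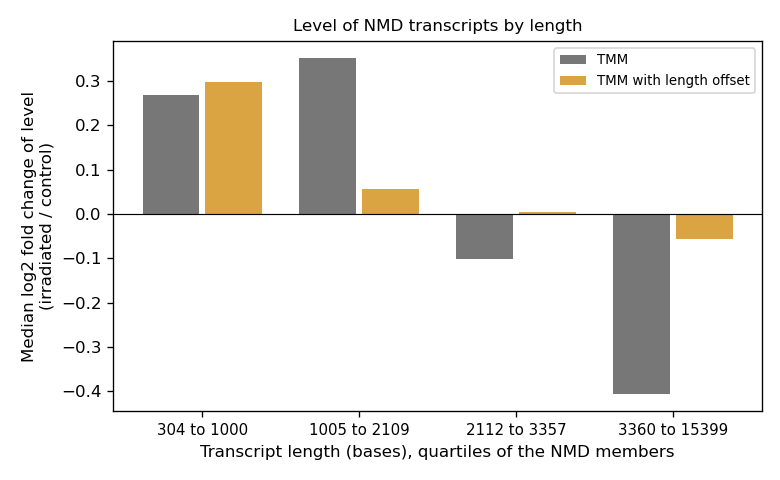
Median log2 fold change in level, irradiated over control, of the members tested in each quartile of transcript length, with TMM normalization (grey) and with an added length offset (yellow). The grey bars go from 0.27 and 0.35 in the shorter quartiles to −0.41 in the longest, and with the offset the 3 longer quartiles lie between −0.06 and 0.06.

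Around the limit of 10 mean reads, single libraries decided which transcripts were members. Just inside lay U2af1l4-222 with a mean of 10.02 reads, Rnaseh2b-204 with 10.03 and Cyp4f13-203 with 10.1. Just outside lay Coq5-202 with 9.98 reads, Poc1b-207 with 9.95 and Sgms1-214 with 9.94. All 50 reads of Sgms1-214 came from control replicate 2, while U2af1l4-222 had 17.0, 23.0 and 8.0 reads in the irradiated libraries and 0 and 1.6 in control.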

How the data were processed

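Bulk RNA-seq of KP1 cells, 2 control and 3 irradiated libraries, was used, and the single-cell samples of the series were not analysed here. The authors quantified reads against mm10 with Salmon (0.8.2 in the submitters' processing notes) and deposited estimated counts of reads per transcript, without scaling. TPM, scaled within each library, came in the same files that the authors deposited. Identifiers were matched without version to GENCODE M21, and 354 of 113116 transcripts stayed unmatched. The length of 2499 of the 2514 members was the same in M21.

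A member's share is its TPM over that of its gene. Level and gene tests used edgeR 4.0.16 on rounded estimated counts (filterByExpr, TMM, quasi-likelihood, no block), and usage used diffSpliceDGE of edgeR, with Benjamini-Hochberg adjustment over all features. The SE printed is the size of the log2 fold change divided by the square root of the F statistic. Thresholds were an adjusted p under 0.05 and, for transcript level, a log2 fold change beyond 1.5, which the study's methods apply to genes. Shares were compared with an exact permutation test over 10 splits. The length offset was fitted in each library as a spline on transcript length (5 degrees of freedom), which takes out a trend with length over all transcripts, whatever its origin, but not all of it within the members. Alternatives were DESeq2 1.42.0, limma 3.58.1, other size factors and filters, a floor of 50 reads, a replicate block and each replicate left out. Tests were run on simulated counts with 200 transcripts changed in level by a log2 fold change of 2. The changed transcripts were drawn from those with means well above 10 reads.

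Named members were the 10 with the most reads, the 5 in each direction with the smallest usage p and no overlap in share, all members of SR, Tra2 and decay-factor genes, and 3 on each side of the read limit. Other members named were chosen after their values were seen. Members and lists were chosen with earlier results of these data known. Kinases of the Rps6k family were left out of the ribosomal list of 89 genes. A few genes are not reported here by name.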

Additional observations from a re-analysis of the deposited data

How the results depend on the processing

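The share of reads held by NMD transcripts was lower in irradiated cells under each alternative tried, by −0.239 percentage points, by −0.112 without the 3 transcripts with the most reads and by −0.294 to −0.184 with each replicate left out. With the parent genes as the denominator, a smaller base, the ratio of irradiated to control was 0.911 against 0.879. The members' share of parent TPM differed by −0.372 points, by −0.876 with reads in place of TPM, by 0.045 at a floor of 50 mean reads and by −0.577 to −0.168 with each replicate left out. The median share differed by −0.359 points, by 0.401 at that floor and by −0.813 to 0.095 with each replicate left out, the last without control replicate 3. The denominator of members and coding transcripts (−1.36) and the 2 settings that leave out abundant transcripts were chosen after seeing the data. The cause of these changes was not tested.

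Level calls, 0 higher and 0 lower in edgeR, were 19 and 9 without a filter and 118 and 83 with DESeq2, and with each replicate left out 0 to 7 higher (7 without control replicate 3) and 0 lower. Usage calls, 4 higher and 11 lower, were 12 and 5 with limma at a pseudocount of 0.1, 0 and 0 at a pseudocount of 1, and 2 and 4 at the floor of 50. They ranged from 2 to 62 higher and from 1 to 48 lower with each replicate left out. With the length offset, 3 of the 4 and 10 of the 11 were among the calls. Genes called over the lists, 94, were 45 with the length offset and 34 to 97 with each replicate left out, the fewest without control replicate 2. Of the 94 list genes, 77 were ribosomal protein genes, as were 40 of the 45 with the length offset. Decay factor calls were 8 lower and 4 higher, and 0 lower and 1 higher with that offset. A control left out leaves 1, which is assumed to vary like the irradiated libraries.

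Replicate numbers 2 and 3 occur in both groups, but deviations of same-numbered samples did not correlate (−0.0652 over 40440 transcripts). This rests on a single contrast in each group, so it cannot decide whether same-numbered samples share a culture or batch. With a replicate block usage calls were 0 and 0, also with the length offset added, list genes 61 and the share of reads −0.221 points. Under the block the log2 value changed sign for the level of Lars2-209 (0.0055), Srsf1-204 (0.044) and Smg5-202 (0.54), and for the usage of Lars2-209 (0.0061) and Srsf9-205 (0.79).

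With the length offset the level changed sign for Lars2-209 (0.077), Qk-202 (0.14) and Srsf2-202 (−0.31), and the usage for Lars2-209 (0.37), Hnrnpu-206 (0.25), Grip2-204 (0.53), Eef1b2-205 (0.011), Srsf1-204 (−0.014) and Smg5-202 (−0.22). With each replicate left out, the level ranged from −0.48 to 0.63 for Lars2-209, from −2.37 to 0.28 for Grip2-204, from −0.70 to 0.16 for Srsf1-204, from −0.16 to 0.72 for Srsf2-202, from −0.070 to 3.68 for Srsf11-206, from −0.099 to 7.56 for Srsf9-205, from −0.56 to 0.27 for Srsf4-204, from −0.93 to 0.85 for Smg5-202 and from −2.72 to 5.77 for Smg6-202. Usage ranged from −0.031 to 0.043 for Lars2-209, from −0.082 to 0.060 for Hnrnpu-206, from −0.52 to 0.28 for Srsf1-204, from −1.05 to 0.49 for Srsf2-202, from −0.55 to 3.66 for Srsf11-206, from −0.59 to 5.74 for Srsf9-205, from −0.77 to 0.90 for Smg5-202 and from −2.60 to 5.81 for Smg6-202. Of 271 level values of 34 named members 251 kept their direction and side of the threshold, and of 270 usage values 217 did.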
